A study of Mus musculus with 25 samples.

Results

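RNA from the CA1 field of the hippocampus was extracted by either of a pair of methods in these mice, and the measurement described here is how the methods differed in the transcripts they delivered to the array. Of the 25 arrays of the series, 17 carried RNA purified on Qiagen RNA/DNA columns and 8 carried RNA extracted with Trizol. All mice were adult female Balb c/J, an inbred strain, and each array held the CA1 tissue of 1 mouse. On the mornings of postnatal days 1 through 14 the handled pups spent 15 min away from the dam, non-handled litters were left alone, and behaviour was tested at 8 weeks of age with tissue taken 2 weeks later. The column mice comprised 7 handled and 10 non-handled animals, and the Trizol mice 4 handled and 4 non-handled animals. Which mouse received which method was taken from the position of the sample in the series list, as the extraction text gives it. The methods were used on separate sets of animals, so the extraction method and the set of animals cannot be told apart in any value below. The litter of each mouse was not given in the sources used here, and the p-values treat the mice as independent.

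Trizol is a phenol and guanidine reagent in which tissue is dissolved and RNA is left in the aqueous phase. In column kits the lysate passes through a resin that binds nucleic acid and is then washed and eluted. Most messenger RNA in a neuron is cytoplasmic, in the cell body, the dendrites and the axon, whereas a number of long noncoding RNAs and incompletely spliced transcripts stay in the nucleus, and transcripts for mitochondrial and ribosomal proteins are among the most abundant and shortest of the cytoplasm. The CA1 field holds pyramidal neurons with their dendrites, interneurons, astrocytes, oligodendrocytes, microglia and vessels. Which of these classes each extraction recovered was the question addressed.

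A gene was represented by the single-gene probe set with the highest mean over the 25 arrays. This gave 18193 genes, some of them members of the 30 classes described here. The classes and their members were chosen with earlier results of these data known. Class counts, medians and ranks therefore describe these lists and are no independent test. Since 17 of the 25 arrays were column arrays, a probe set lower with columns was less readily the one chosen. A difference is the mean log2 signal with columns minus that with Trizol, adjusted for handling, so a positive value is higher with columns. A gene was called where limma's adjusted p was under 0.05. By this rule 7494 genes were called, 41.2% of those tested, with 23.7% higher and 17.5% lower with columns. Over all 45037 probe sets the called share was 39.8%, with 16.5% higher and 23.3% lower. The median difference over all genes was -0.02 as deposited, 0.26 after quantile normalization or after giving each array the same mean and variance, 0.46 after median centring and -0.00 after adding an offset of 50. Class medians are therefore given relative to the median of all genes. After quantile normalization 31.6% of genes were higher and 14% lower. Bright genes were called more often than dim ones, and in the brightest quintile of genes 50.3% were higher and 22.8% lower, which is the background against which the bright classes stand.

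The arrays separated by extraction. The correlation of log2 signal over all probe sets was 0.806 to 0.887 between a column and a Trizol array, 0.865 to 0.917 between column arrays and 0.887 to 0.919 between Trizol arrays, and 25 of 25 arrays had their closest partner within their own method. The first principal component held 24.2% of the variance, and the methods did not overlap on it. Mean signal was 777 to 910 with columns and 737 to 777 with Trizol. Median signal was 79.6 to 135 with columns and 115.9 to 162.8 with Trizol, so columns gave a higher mean and mostly a lower median.

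The tissue label was checked on marker genes. All 10 measured CA1 pyramidal genes lay in the upper 2 quintiles of all probe sets by mean signal. Wfs1, an endoplasmic reticulum protein used as a CA1 marker, had log2 signals of 12.37 to 14.22 over the column mice and 12.51 to 13.61 over the Trizol mice. Prox1, a transcription factor of dentate granule cells, lay between 4.57 and 7.51 over all mice. Of the 21 genes of the dentate gyrus, CA3 and CA2, however, 12 reached the upper 2 quintiles. Among this class Pcp4 was 10.26 to 11.91 with columns and 9.79 to 10.79 with Trizol. None of the 6 erythrocyte genes and 4 of 15 choroid plexus and ependyma genes reached the upper 2 quintiles. Ttr, the transthyretin made by choroid plexus, was 4.04 to 7.57 with columns and 5.18 to 7.79 in 7 of the Trizol mice, and stood at 11.45 in non-handled Trizol mouse NH147.

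**Figure D1:**
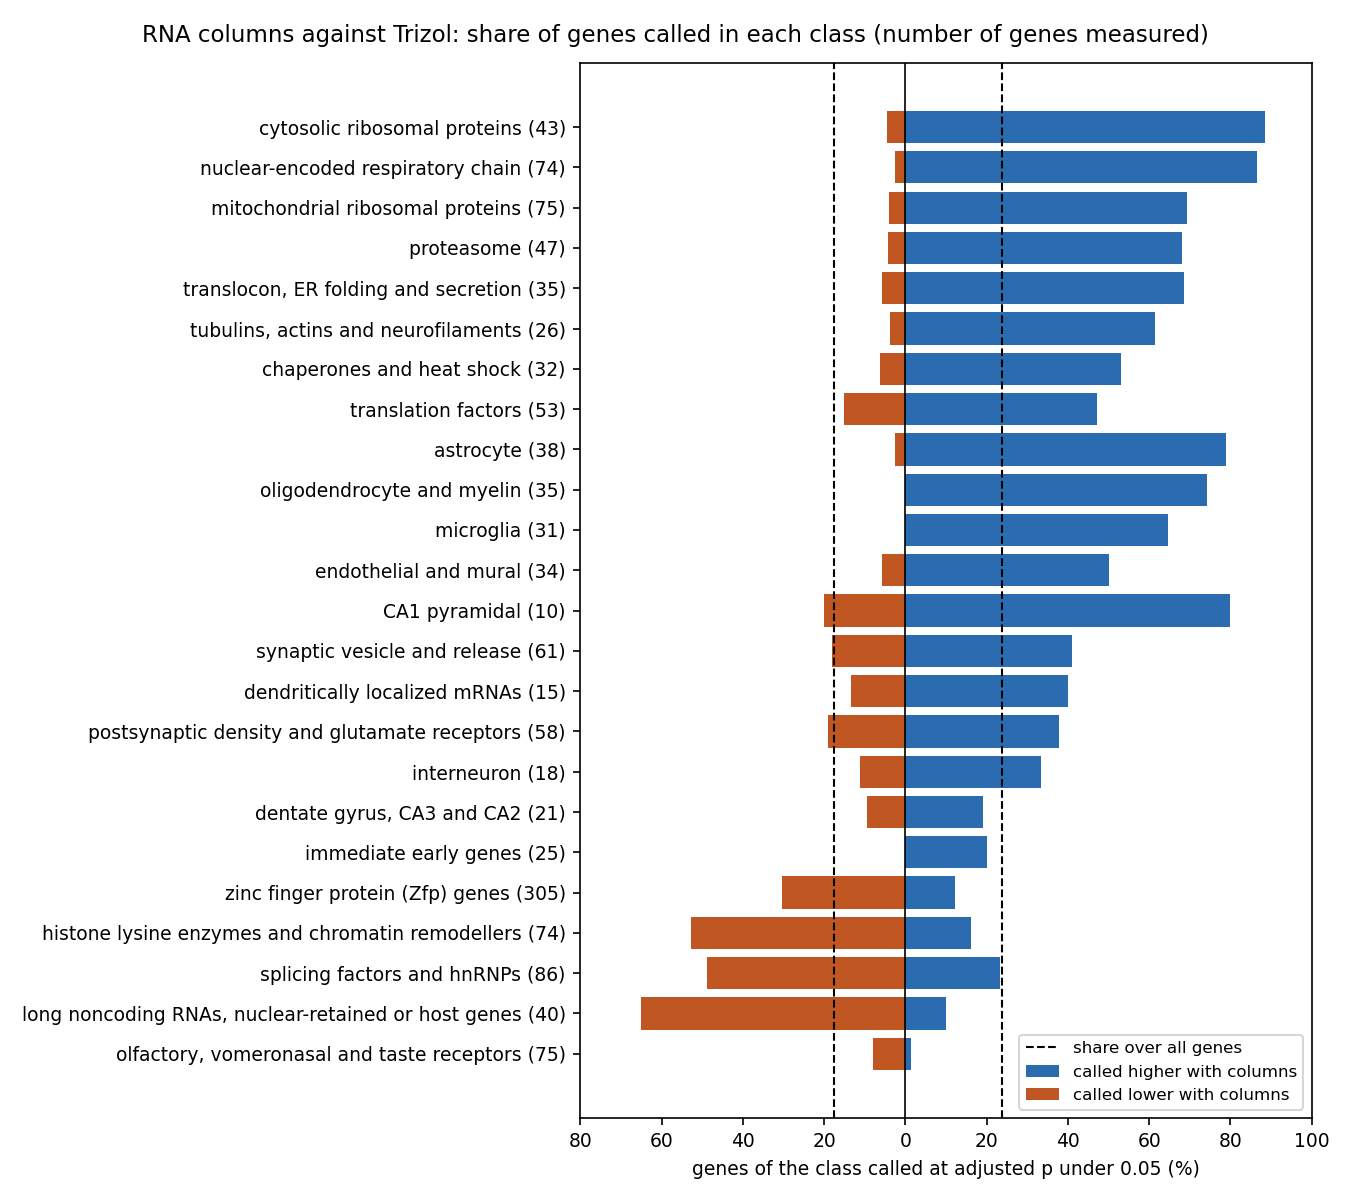
Percent of the measured genes of each class that were called higher (right) or lower (left) with columns at an adjusted p under 0.05, with the number of genes beside each class and dashed lines at the shares over all genes, 23.7% and 17.5%. Relative to the dashed lines, ribosomal, mitochondrial and glial classes lie on the higher side, and long noncoding RNAs, splicing factors and chromatin enzymes on the lower side.

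Long noncoding RNAs that are nuclear-retained or host small RNAs were the class with the lowest median. Of 40 measured, 26 were lower and 4 higher with columns, and the class median was -0.98 relative to all genes, -0.97 after quantile normalization and -0.70 with the offset. Taking all 103 probe sets of these genes, 70 were lower and 5 higher. The class level, the median log2 signal of the members on an array minus the median of all its probe sets, was 0.98 at the lowest, 1.22 at the median and 1.56 at the highest over the 17 column arrays. Over the 8 Trizol arrays it was 2.43, 2.81 and 3.05. Every column array was below every Trizol array, and this held too on the log2 signal itself and relative to the genes of each array.

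Meg3 is a maternally expressed imprinted RNA that stays largely in the nucleus. Its probe set 1452183_a_at had log2 signals of 7.41 at the lowest, 8.38 at the median and 9.23 at the highest with columns, against 13.46, 13.85 and 14.15 with Trizol. No column mouse came near the Trizol range, and the difference was -5.53 (SE 0.152, limma adjusted p = 2.38e-24), a 46.3-fold lower signal. The other 10 probe sets of Meg3 were also lower, and at 1452905_at the difference was -3.42. Miat, a long noncoding RNA of neurons that forms its own nuclear domain, gave 8.31 to 9.79 with columns (median 9.05) and 13.84 to 14.26 with Trizol (median 13.95). Its difference was -4.94 (SE 0.131, limma adjusted p = 1.92e-24), and the methods did not overlap.

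Malat1, an abundant RNA of nuclear speckles, was 13.14 to 14.28 with columns (median 13.77) and 15.10 to 15.74 with Trizol (median 15.52). The methods did not overlap there either, with a difference of -1.68 (SE 0.127, limma adjusted p = 6.89e-13), and its other 6 probe sets were lower. Neat1, the scaffold of paraspeckles, ranged from 4.12 to 7.62 with columns and from 10.25 to 10.95 with Trizol, a difference of -4.12 (SE 0.326, limma adjusted p = 1.84e-12). Its other probe set was not called. Snhg11, a small nucleolar RNA host gene of neurons, was 7.86 to 9.03 with columns and 12.77 to 13.45 with Trizol, a difference of -4.68. Ftx, a transcript of the X-inactivation centre, differed by -4.80, and its probe set was dim in the column mice, at 2.55 to 7.00. The class was not uniform. Snhg8, another small nucleolar RNA host gene, was higher with columns by 0.86 (limma adjusted p = 1.44e-07), with 16 of 17 column mice above every Trizol mouse. Within non-handled mice 20 of the 40 were lower and 4 higher, and within handled mice 24 and 3.

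**Figure D2:**
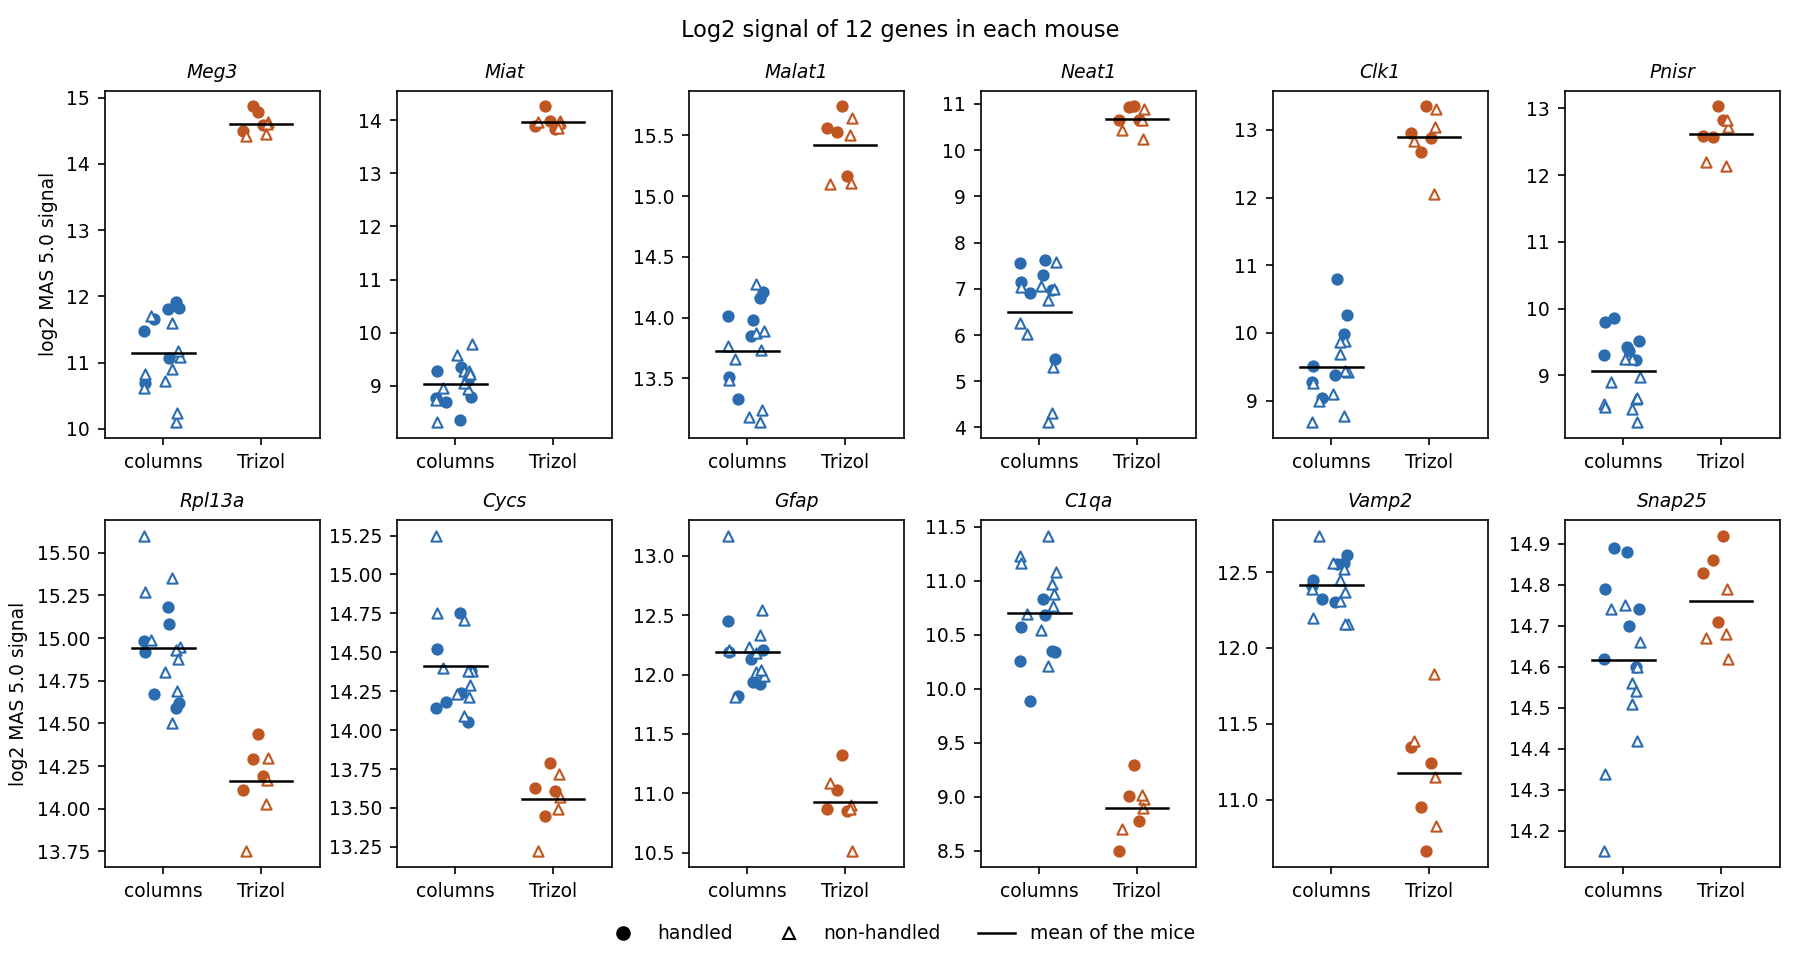
Log2 signal of 12 probe sets in each mouse by extraction, with filled circles for handled mice, open triangles for non-handled mice and a line at the mean. Meg3, Miat, Malat1, Neat1, Clk1 and Pnisr lie higher in all 8 Trizol mice, Rpl13a, Cycs, Gfap, C1qa and Vamp2 lie higher in all 17 column mice, and the ranges of Snap25 overlap.

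Genes annotated as long noncoding in the gene table, members of the listed class such as Meg3 and Miat included, numbered 1355. Of these 16.5% were lower and 3.47% higher with columns, against 17.5% and 25.9% of 16468 protein-coding genes. Their median difference was -0.33 as deposited but 0.11 after quantile normalization, where 8.19% were lower and 9.3% higher. Most of them were dim, with 647 in the dimmest quintile of genes by mean signal.

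Splicing factors and hnRNPs, the proteins that assemble on pre-mRNA, were also lower in part. This class, the chromatin enzymes and the Zfp genes were grouped by their proteins, and where their transcripts lie was not measured. Of 86 genes, 42 were lower and 20 higher, and the class median relative to all genes was -0.26, and -0.61 after quantile normalization. The class median itself was -0.27, and 0.20 after median centring, where that of all genes was 0.46. Over all 291 probe sets of the class, 57% were lower and 17.2% higher. As log2 signal the class level had a median of 10.75 with columns and 11.32 with Trizol and did not overlap, and it was 2.71 to 3.23 against 3.24 to 3.69 relative to the genes of the array. Relative to all probe sets of the array it was 3.66 to 4.58 against 4.00 to 4.50 and overlapped, with the column median of 4.21 slightly above the Trizol median of 4.13, so the direction of this class depends on the reference.

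Clk1, a kinase that phosphorylates SR proteins and whose own transcript is known to be held in the nucleus with introns, was 8.68 to 10.80 with columns (median 9.43) and 12.06 to 13.35 with Trizol (median 12.92). The difference was -3.37 (SE 0.18, limma adjusted p = 1.07e-16) without overlap. Pnisr, an SR-related protein of nuclear speckles, was 8.30 to 9.86 with columns and 12.14 to 13.03 with Trizol, a difference of -3.49 (SE 0.123, limma adjusted p = 2.06e-21), and its other 6 probe sets were lower too. Sf3a2, a core subunit of the U2 snRNP, went the other way, with 10.23 to 10.71 against 8.68 to 9.70 and a difference of 1.06 (limma adjusted p = 3.41e-11).

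Histone lysine enzymes and chromatin remodellers resembled the splicing factors. Of 74 genes, 39 were lower and 12 higher, with a class median of -0.33 relative to all genes and -0.53 after quantile normalization. The class median itself was -0.34, and 0.13 after median centring. The class level of columns lay below that of Trizol without overlap as log2 signal and relative to the genes of the array, and overlapped relative to all probe sets. The nucleosome remodeller Chd1 was 7.48 to 8.60 with columns and 9.06 to 10.44 with Trizol, a difference of -1.84, and its relative Chd9 differed by -1.58. The deacetylase Hdac5 was higher with columns by 1.01 and the acetyltransferase Kat5 by 0.91, each without overlap.

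The Zfp genes, which encode zinc finger proteins, were the largest class. Of 305 genes, 93 were lower and 37 higher, with a class median of -0.14 relative to all genes and -0.13 after quantile normalization. The class median itself was -0.15, and turned to 0.13 after quantile normalization, 0.08 after giving each array the same mean and variance and 0.32 after median centring. The extremes were far from the median: Zfp40 differed by -3.34 and Zfp950 by -3.31, while Zfp423 was higher by 2.29 and Zfp688 by 2.04. Replication-dependent histones, whose mRNA lacks a poly(A) tail, were measured by 7 genes, of which 2 were higher and 1 lower. Of 8 genes of small structural RNAs, 2 were lower and none higher, with a median of -0.55 relative to all genes, and 7 of the 8 lay outside the upper 2 quintiles of all probe sets.

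Cytosolic ribosomal proteins had the highest class median as deposited, whereas after quantile normalization or with the same mean and variance that of microglia was higher, and in handled mice alone that of astrocytes. Of 43 measured genes, 38 were higher and 2 lower with columns, and the median was 0.79 relative to all genes and 0.39 after quantile normalization. The class level was 6.22 at the lowest, 6.90 at the median and 7.66 at the highest with columns, and 5.23, 5.39 and 5.69 with Trizol. Columns lay above Trizol on every array, and did so too as log2 signal and relative to the genes of the array. Ribosomal protein probe sets can share sequence with processed pseudogenes, which the deposited signals do not separate.

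Rpl13a, a protein of the large subunit, was 14.50 to 15.60 with columns (median 14.93) and 13.75 to 14.44 with Trizol (median 14.18), a difference of 0.78 (SE 0.115, limma adjusted p = 8.56e-07) without overlap. Rps10, of the small subunit, was higher by 1.65, and 4 of its other 5 probe sets were higher and 1 lower. Rpl22 was higher by 2.17. The 2 exceptions were Rpl12, at -3.43, and Rps25, at -0.79, and the Rpl12 probe set was dim in the column mice, at log2 signals of 0.98 to 7.15. Of 53 translation factors, 25 were higher and 8 lower, with a median of 0.25 relative to all genes that turned to -0.02 after quantile normalization. Eef2, the translocating elongation factor, was 13.44 to 14.01 with columns and 11.89 to 13.03 with Trizol, a difference of 1.39 (limma adjusted p = 3.9e-14). Eef1a1, which delivers aminoacyl-tRNA and is among the brightest probe sets, had medians of 15.48 and 15.47, a difference of 0.04 (limma adjusted p = 0.798).

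Control probe sets for 18S ribosomal RNA lie outside the probe sets tested above. Their signal was measured after 2 rounds of amplification, and how it relates to the ribosomal RNA recovered was not tested. The 18S probe set near the 5′ end was 14.08 to 15.49 with columns (median 14.65) and 12.25 to 13.25 with Trizol (median 12.69). All 17 column mice lay above all Trizol mice, and the difference was 1.94 (SE 0.152; exact two-sided permutation of the extraction within handling, p = 3.03e-06, the smallest it can give, 1.21e-05 after adjustment over 12 control measures). The middle 18S probe set differed by 2.24 with the same p, and the 3′ probe set by 0.72 (exact permutation p = 3.94e-05). The repeat control probe sets, added after the other controls had been seen, gave 0.38 for B1 (exact permutation p = 0.0187, n = 17 and 8, and 0.0541 without non-handled Trizol mouse NH138), and -0.33 (exact permutation p = 0.0034) and -1.02 (exact permutation p = 3.03e-06) for the pair of B2 probe sets. B1 and B2 are short interspersed repeats that occur in many introns and 3′ ends.

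The hybridization spikes, added after labeling, differed by 0.05 (exact permutation p = 0.605). The poly-A spikes, dim at log2 signals of 2.86 to 4.90, differed by -0.26 (exact permutation p = 0.109, and 0.0497 without non-handled column mouse NH163). The 3′ minus 5′ signal of Gapdh, a measure of how far labeled RNA extends from the 3′ end, was 1.04 to 1.71 with columns and 1.495 to 1.945 with Trizol, a difference of -0.42 (exact permutation p = 3.94e-05). The same measure for Actb differed by -0.02 (exact permutation p = 0.921), for Tfrc by 0.35 (exact permutation p = 0.392) and for Pcx by 0.08 (exact permutation p = 0.742). After adjustment over the 12 control measures these p-values were 9.46e-05 for the 3′ 18S probe set and for Gapdh, 1.21e-05 and 0.0068 for B2, 0.0321 for B1, 0.164 for the poly-A spikes and at least 0.523 for the others. With the Gapdh and Actb values as covariates, the class median relative to all genes was 0.89 for cytosolic ribosomal proteins, 0.66 for the respiratory chain, 0.61 for astrocytes, 0.79 for microglia, -0.92 for the long noncoding RNAs and -0.38 for splicing factors.

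**Figure D3:**
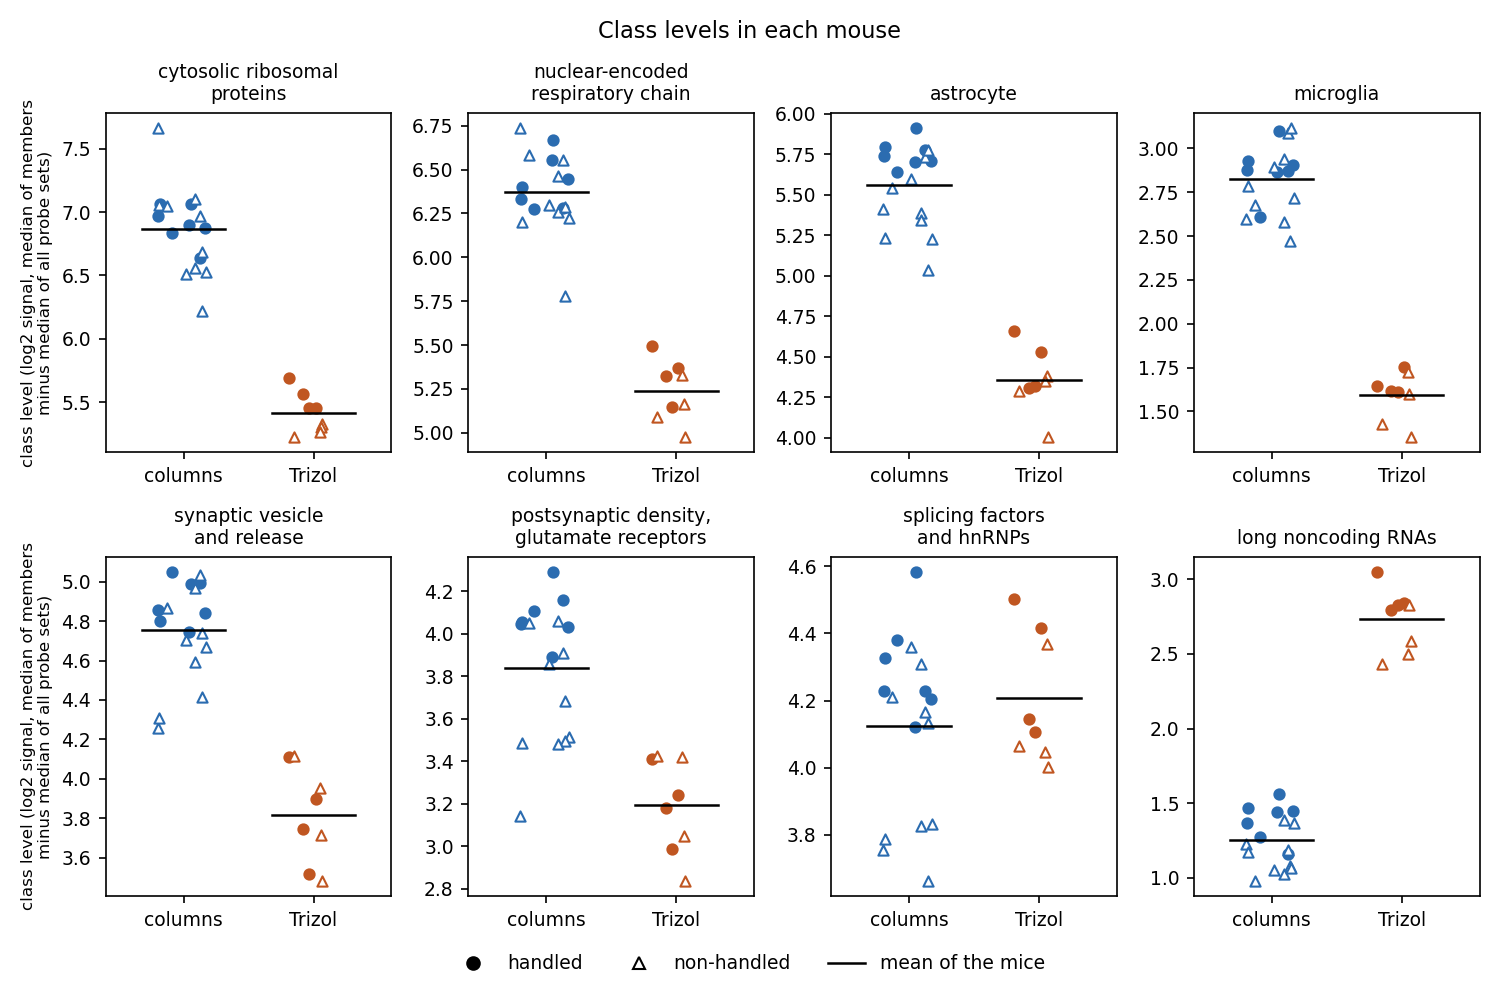
Class level of 8 classes in each mouse by extraction, as the median log2 signal of the members minus the median of all probe sets of that array, with filled circles for handled mice, open triangles for non-handled mice and a line at the mean. The 17 column arrays lie above all 8 Trizol arrays for ribosomal proteins, the respiratory chain, astrocytes, microglia and synaptic vesicles, and below them for long noncoding RNAs, while the postsynaptic and splicing classes overlap.

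Nuclear-encoded subunits of the respiratory chain were higher with columns in 64 of 74 genes and lower in 2. The class median was 0.68 relative to all genes and 0.19 after quantile normalization. The class level was 5.78 to 6.74 with columns (median 6.34) and 4.98 to 5.49 with Trizol (median 5.24), without overlap. Cycs, the electron carrier cytochrome c, was 14.05 to 15.25 with columns (median 14.38) and 13.22 to 13.79 with Trizol (median 13.59). Every column mouse lay above every Trizol mouse, with a difference of 0.84 (SE 0.114, limma adjusted p = 1.93e-07). Sdhc, a membrane subunit of complex II, was higher by 1.63, Uqcrc1 of complex III by 1.26 and Cox4i1 of complex IV by 0.74. The 2 that were lower were Cox7c, at -2.54, and Ndufb4, at -1.37, and both probe sets were dim in the column mice, at 4.22 to 6.74 and 1.87 to 7.12.

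Mitochondrial ribosomal proteins, which are encoded in the nucleus and imported, were higher in 52 of 75 genes and lower in 3. Their class median was 0.53 relative to all genes and 0.40 after quantile normalization, and their class level was 2.86 to 3.86 with columns and 2.16 to 2.60 with Trizol, without overlap. Mrpl40 was higher by 1.51 and Mrps11 by 1.43. RNA transcribed from mitochondrial DNA itself was represented by 1 gene, ND5, a subunit of complex I. ND5 was 15.07 to 15.84 with columns (median 15.49) and 14.71 to 15.50 with Trizol (median 15.08), so the ranges overlapped, and the difference was 0.37 (SE 0.102, limma adjusted p = 0.00377). Relative to all genes this difference was 0.38, and -0.03 after quantile normalization. It was not called within handled mice, where it was 0.16.

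Glial transcripts were higher with columns. In these bulk samples a smaller number of cells of a type and less RNA per cell cannot be told apart. Of 38 astrocyte genes, 30 were higher and 1 lower, with a class median of 0.68 relative to all genes and 0.34 after quantile normalization. The class level was 5.03 to 5.91 with columns (median 5.64) and 4.01 to 4.66 with Trizol (median 4.34), without overlap. Gfap, the intermediate filament of astrocytes, was 11.81 to 13.17 with columns (median 12.18) and 10.51 to 11.32 with Trizol (median 10.89), a difference of 1.25 (SE 0.119, limma adjusted p = 1.27e-10). Atp1b2, a sodium pump subunit, was higher by 1.46 and Mlc1, a membrane protein of astrocyte endfeet, by 1.39, both without overlap. Slc1a2 overlapped at 1438194_at, with 14.40 to 15.08 for columns and 14.07 to 14.53 for Trizol, but not at its dimmer probe set 1459014_at.

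Of 31 microglial genes, 20 were higher and none lower. The class median was 0.61 relative to all genes and 0.65 after quantile normalization. The class level was 2.47 to 3.11 with columns and 1.35 to 1.75 with Trizol. C1qa, a chain of the complement component C1q, was 9.89 to 11.42 with columns (median 10.69) and 8.49 to 9.30 with Trizol (median 8.94). The methods did not overlap, and the difference was 1.77 (SE 0.13, limma adjusted p = 3.3e-13), a 3.42-fold higher signal. Laptm5, a lysosomal membrane protein, was higher by 1.73 and Csf1r, the receptor on which microglia depend, by 1.42, while Cx3cr1, the fractalkine receptor, was higher by 0.58 with overlapping ranges.

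Of 35 oligodendrocyte and myelin genes, 26 were higher and none lower, with a class median of 0.59 relative to all genes and 0.33 after quantile normalization. The class level overlapped between the extractions, with 16 of 17 column arrays above every Trizol array relative to all probe sets, 10 as log2 signal and 8 relative to the genes of the array. Cryab, a small heat shock protein of oligodendrocytes, was higher by 1.23 (limma adjusted p = 7e-10). Mbp, the myelin basic protein, was higher by 0.28 with overlapping ranges (limma adjusted p = 0.0292), and by 0.05 after quantile normalization. Endothelial and mural genes were higher in 17 of 34 and lower in 2, with a class median of 0.45 relative to all genes and 0.51 after quantile normalization. Their class level overlapped, with 14 of 17 column arrays above every Trizol array relative to all probe sets. As log2 signal this held for 2 column arrays, and relative to the genes of the array for 3. Bsg, the membrane glycoprotein basigin, was 10.93 to 11.61 with columns and 9.34 to 10.33 with Trizol, a difference of 1.54 (limma adjusted p = 4.18e-14). The tight junction protein Cldn5 was higher by 1.00, and the organic anion transporter Slco1a4 was lower by a difference of -0.43, which became 0.04 after median centring.

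Synaptic transcripts were divided. Of 61 genes of synaptic vesicles and release, 25 were higher and 11 lower, with a class median of 0.24 relative to all genes that turned to -0.04 after quantile normalization. Against genes in the same quintile of mean signal, the class median was higher by only 0.04. The class level was 4.26 to 5.05 with columns and 3.48 to 4.11 with Trizol relative to all probe sets, without overlap, but overlapped as log2 signal and relative to the genes of the array. Vamp2, the vesicle SNARE synaptobrevin, was 12.16 to 12.74 with columns (median 12.41) and 10.66 to 11.83 with Trizol (median 11.20). It did not overlap and differed by 1.24 (SE 0.102, limma adjusted p = 4.86e-12).

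Unc13b, a priming factor of the same release machinery, went the opposite way, at 7.32 to 8.70 with columns (median 7.79) and 9.85 to 10.31 with Trizol (median 9.97). Its difference was -2.11 (SE 0.138, limma adjusted p = 1.71e-14) without overlap, while its other probe set was not called. The calcium sensor Syt7 differed by -0.85. Snap25, the SNARE of the presynaptic membrane, was 14.15 to 14.89 with columns and 14.62 to 14.92 with Trizol, a difference of -0.13 (limma adjusted p = 0.211) that was called lower after quantile normalization, at -0.39, and was 0.35 after median centring. Syt1, the calcium sensor of fast release, differed by 0.12 (limma adjusted p = 0.172), and by -0.18 after quantile normalization.

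Of 58 genes of the postsynaptic density and glutamate receptors, 22 were higher and 11 lower, with a class median of 0.17 relative to all genes and 0.02 after quantile normalization. Over all 143 probe sets of the class, 40 were higher and 40 lower. Camk2a, the calcium-dependent kinase of the postsynaptic density whose mRNA is carried into dendrites, was 12.59 to 13.39 with columns (median 13.02) and 11.88 to 12.52 with Trizol (median 12.04), a difference of 0.86 (SE 0.088, limma adjusted p = 6.82e-10) without overlap. The kainate receptor subunit Grik1 differed by -1.18 and the NMDA receptor subunit Grin2b by -1.03, and the AMPA receptor subunit Gria2 by -0.33, which became 0.15 after median centring. Of 15 dendritically localized mRNAs, 6 were higher and 2 lower, with a class median of 0.23 relative to all genes, 0.08 after quantile normalization and 0.12 with the same mean and variance. The lower pair were Fmr1, the RNA-binding protein lost in fragile X syndrome, at -0.52, and Map2, the dendritic microtubule protein, at -0.24 and 0.23 after median centring.

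The other cytoplasmic machinery, whose classes were bright, leaned towards columns as deposited. Against genes in the same quintile of mean signal, the proteasome median was higher by 0.36 and that of translocon and secretion genes by 0.26. For tubulins, actins and neurofilaments the same value was 0.24, and for chaperones 0.16. The proteasome was higher in 32 of 47 genes and lower in 2, with a class median of 0.52 relative to all genes and 0.25 after quantile normalization. Over all 100 probe sets of the class 43 were higher and 23 lower, with a median of 0.25 relative to all single-gene probe sets. Psmd4, its ubiquitin receptor, was higher by 1.27. Psme4, a proteasome activator, was 7.83 to 9.24 with columns and 10.28 to 11.28 with Trizol. Its difference was -2.30 (SE 0.116, limma adjusted p = 2.54e-17), and its other 5 probe sets were lower. Genes of the translocon, endoplasmic reticulum folding and secretion were higher in 24 of 35 and lower in 2, with a median of 0.51 relative to all genes, 0.15 after quantile normalization, 0.25 with the same mean and variance and 0.31 over all its probe sets relative to all single-gene ones. Sec61b, a subunit of the translocon channel, was higher by 1.43 without overlap.

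Tubulins, actins and neurofilaments were higher in 16 of 26 and lower in 1, with a median of 0.43 relative to all genes and 0.04 after quantile normalization. Tubb2b was higher by 1.12. Chaperones were higher in 17 of 32 and lower in 2, with a median of 0.41 that turned to -0.02 after quantile normalization. Of 25 immediate early genes, 5 were higher and none lower, with Egr3 at 0.90 and Fos, the textbook activity gene, at -0.23 (limma adjusted p = 0.632).

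Neuronal subfield markers gave no single direction. Of the 10 CA1 pyramidal genes, 8 were higher and 2 lower, with a class median of 0.43 that turned to -0.04 after quantile normalization, and over their 22 probe sets 11 were higher and 11 lower. Pou3f1, a POU transcription factor, was 11.79 to 12.40 with columns and 10.42 to 11.34 with Trizol, a difference of 1.24. Zbtb20, a transcription factor that specifies CA1 neurons, was 11.30 to 12.35 with columns and 12.59 to 13.24 with Trizol. Its difference was -1.15, and its other 8 probe sets were lower. Pou3f1 and Zbtb20 were each called without overlap. Most of the 11 lower probe sets of the class were those of Zbtb20.

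Of 21 genes of the dentate gyrus, CA3 and CA2, 4 were higher and 2 lower, with a median of -0.14 relative to all genes. Of 18 interneuron genes, 6 were higher and 2 lower, with a median of 0.15. Gad1, the GABA-synthesizing enzyme, was 12.24 to 13.15 with columns and 12.25 to 13.36 with Trizol, a difference of 0.03 (limma adjusted p = 0.863), while the vesicular GABA transporter Slc32a1 was higher by 0.99 and the secreted protein Reln lower, at -0.89. Choroid plexus and ependyma had 1 of 15 genes higher and 1 lower. Erythrocyte genes had 2 of 6 higher and 1 lower. Receptor genes of olfaction, vomeronasal sensing and taste had 1 of 75 higher and 6 lower, and keratins with their associated proteins 5 of 78 higher and 8 lower. The last 2 classes, not known in CA1, had medians of -0.15 and -0.16 relative to all genes.

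The comparison was repeated within non-handled mice, 10 with columns against 4 with Trizol, and within handled mice, 7 against 4, which share no arrays. Within non-handled mice 28.8% of genes were called, 16.9% higher and 11.9% lower, and within handled mice 34.1%, 20.4% higher and 13.7% lower. Of the 5239 genes called in non-handled mice, 97.3% differed in the same direction in handled mice and 79.8% were called there too. Of the 6209 genes called in handled mice, 67.3% were called in non-handled mice. Only 18 genes were called in both with opposite directions, and over all genes 74.3% had the same sign. Across genes, which are not independent replicates, the differences in the separate sets of mice had a Pearson correlation of 0.63 and a Spearman correlation of 0.61.

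**Figure D4:**
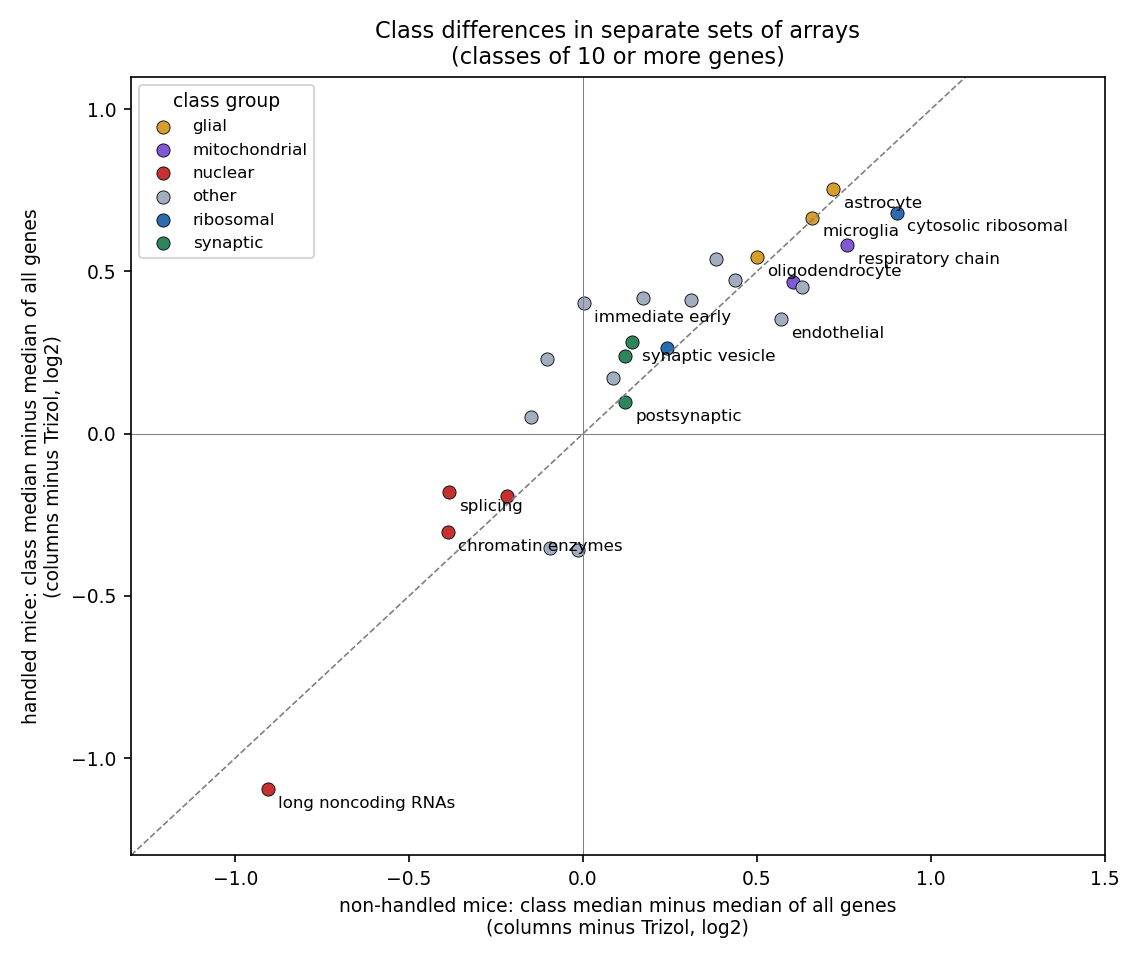
Class median relative to all genes within non-handled mice (horizontal axis, log2) and within handled mice (vertical axis, log2) for classes of at least 10 genes, with the line of equality. The long noncoding RNAs lie at the lower left, at -0.91 and -1.10, and the cytosolic ribosomal proteins at the upper right, at 0.90 and 0.68.

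Class medians were then set side by side. The cytosolic ribosomal proteins had a median relative to all genes of 0.90 in non-handled mice, with 38 of 43 genes higher, and of 0.68 in handled mice, with 35 higher. The respiratory chain had 0.76 and 0.58, astrocytes 0.72 and 0.75, microglia 0.66 and 0.67, and splicing factors -0.39 and -0.18. Of the 74 respiratory chain genes, 71 differed in the same direction in both, as did 36 of the 40 long noncoding RNAs. The immediate early genes differed more, with 0.00 in non-handled and 0.40 in handled mice, and this gap was not tested. The interaction of extraction and handling was tested for each probe set. It was called in 23 of 45037, 0.0511% of those tested (limma, adjusted p under 0.05), and 3365 had an unadjusted p under 0.05. The count of 23 became 61 without H113, 7 without H130, 8 without H131, 9 without H126, 10 without NH144, 12 without NH147, 14 without each of H108, H110 and NH163, and 15 without each of H109 and NH165.

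Among brighter probe sets of like direction in both handling groups, the 12 largest falls were larger than the 12 largest rises. Brightness was the mean log2 signal over the 25 arrays, 17 of them column arrays. A probe set dim with columns therefore entered less readily than one dim with Trizol. Rises and falls were thus not selected on equal terms, and the effect of this on their sizes was not tested. The 12 largest rises ran from 2.12 to 2.90. The largest was Prkar1b, a regulatory subunit of protein kinase A, at 8.75 to 9.98 with columns and 5.77 to 8.32 with Trizol, a difference of 2.90 (limma adjusted p = 1.05e-12), with its other 4 probe sets higher. The others included Fkbp2, a prolyl isomerase of the endoplasmic reticulum, at 2.22, Timm10b, a mitochondrial import chaperone, at 2.14, and H2-D1, a class I histocompatibility heavy chain with close paralogs, at 2.32. The 12 largest falls ran from -5.53 to -4.48. Beside Meg3, Miat, Ftx and Snhg11 they held Oga, the enzyme that removes O-GlcNAc from proteins, at -4.76 with its other 5 probe sets lower. They also held Tsc22d1, a leucine zipper transcription regulator, at -4.61, and Col11a1, a fibrillar collagen chain, at -5.01. Column signals were dim, at 2.80 to 7.50 for Oga, 2.94 to 7.20 for Tsc22d1 and 2.60 to 6.74 for Col11a1.

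Different probe sets of a single gene could move in opposite directions. Of 4977 genes with at least 2 probe sets in the upper 50% by mean signal, 3703 had calls in 1 direction, 338 (6.79%) had calls in both and 936 had none. Atp5c1, the gamma subunit of ATP synthase, was the widest case. Its probe set 1416058_s_at was 14.20 to 15.16 with columns and 13.62 to 13.93 with Trizol, a difference of 0.74, and its probe set 1438809_at was 3.48 to 7.12 with columns and 9.10 to 10.03 with Trizol, a difference of -4.17. Both were called without overlap. The scaffold protein gene Dlgap1 had probe sets at 0.80 and -4.02, the cell polarity gene Lin7b at 0.41 and -4.30, and the adhesion molecule gene Ncam1 at 1.02 and -3.55. The lower probe sets were dim with columns, at 3.80 to 7.15 for Dlgap1, 3.39 to 6.81 for Lin7b and 4.43 to 6.89 for Ncam1. For Camk2a, 1443876_at was lower by a difference of -3.26, against the 0.86 of the probe set given above.

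Probe sets with no gene in the annotation were more often lower than higher with columns, except in the brightest quintile. Of 9160 such probe sets, 38.1% were lower and 3.88% higher with columns, with a median difference of -0.65, whereas 34945 probe sets with a single gene had 19.7% lower and 19.4% higher and a median of -0.07. After quantile normalization the share lower was 30.2% against 15%. Split by quintile of mean signal from dimmest to brightest, the share lower among probe sets without a gene was 16.5%, 35.8%, 59.3%, 62.2% and 33.2%, and among those with a gene 7.93%, 15.7%, 23.1%, 24.7% and 23.8%. In the third quintile the median difference of probe sets without a gene was -1.16. In the brightest quintile 39.4% of probe sets without a gene were higher, more than were lower, and their median difference was 0.06. What these probe sets detect was not examined here, since no probe positions were used.

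**Figure D5:**
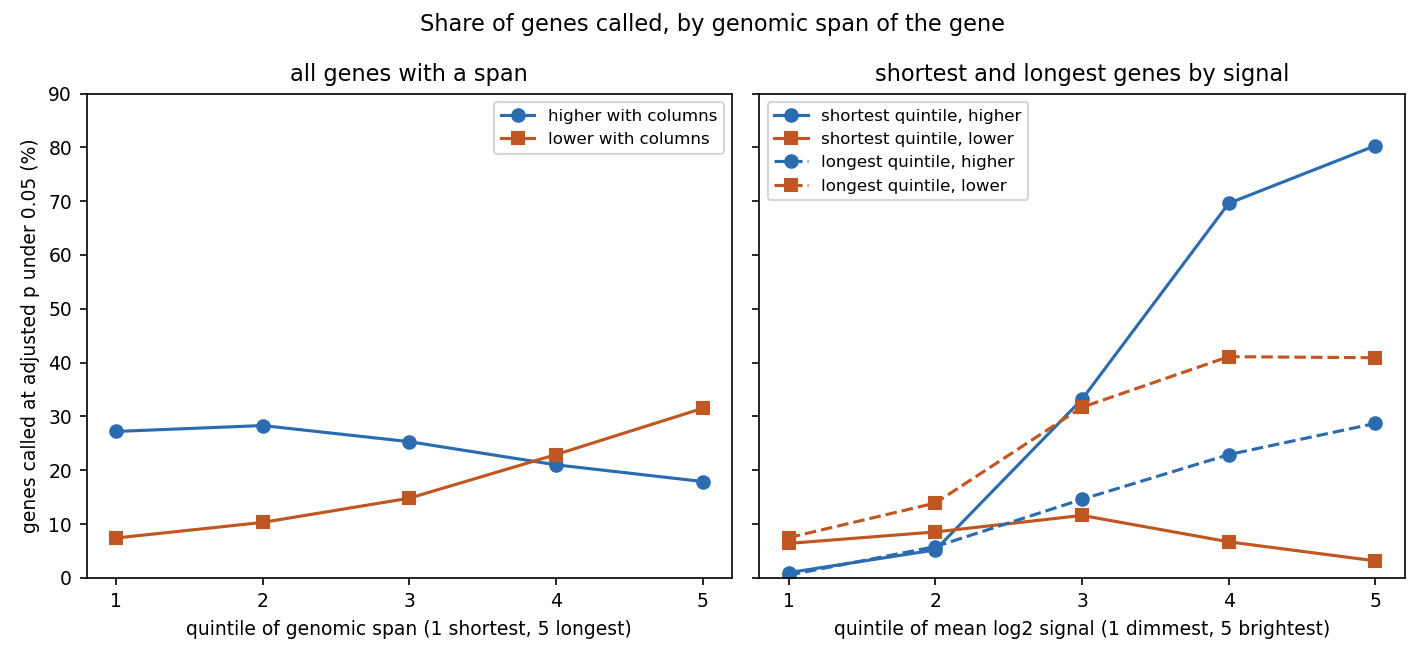
Percent of genes called higher or lower with columns by quintile of genomic span, from shortest to longest, over all genes, and for the shortest and longest quintiles by quintile of mean signal. The share lower rises from 7.4% in the shortest quintile to 31.5% in the longest, and in the brightest quintile of signal 80.3% of the shortest genes were higher against 28.7% of the longest.

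Genes with a long genomic span, exons and introns together, were lower with columns more often than short ones. From shortest to longest, the 5 groups had median spans of 3.35, 9.98, 20.3, 40.8 and 117.8 kb in the RefSeq gene table of assembly GRCm38.p6. The share called lower was 7.4%, 10.3%, 14.8%, 22.9% and 31.5% in that order, and the share higher 27.2%, 28.3%, 25.3%, 21% and 17.9%. Longer genes were also brighter, so the shares were taken within quintiles of mean signal. In the brightest quintile, 80.3% of the shortest genes were higher and 3.15% lower, with a median difference of 0.64, and 28.7% of the longest were higher and 40.9% lower, with a median of -0.10. After quantile normalization the same shares were 73.9% and 6.51% for the shortest and 23.1% and 51% for the longest. In the dimmest quintile as deposited the shares differed little. There 0.965% of the shortest genes were higher and 6.4% lower, against 0.515% and 7.47% of the longest. Across genes, span and difference had a Spearman correlation of -0.15.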

How the data were processed

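Total RNA from CA1, micro-dissected and kept in RNAlater, was amplified in 2 rounds, biotinylated and run in parallel on the Affymetrix Mouse 430_2.0 platform. The authors deposited 1 table of MAS 5.0 signal intensity per probe set and array, made with Expression Console 1.1, on a linear scale that was scaled per array and not log-transformed. These intensity values were log2-transformed without an offset. Of 45101 probe sets, 64 controls were left out of tests, which left 45037. Probe sets were named through the platform annotation of 2016, with 34754 symbols updated from RefSeq GRCm38.p6, giving 34945 with 1 gene, 932 with several and 9160 with none.

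Differences were fitted with limma 3.58.1 in R 4.3.3 (lmFit, eBayes with trend, handling as covariate, all 25 arrays), with Benjamini-Hochberg adjustment over all probe sets. Scripts used Python 3.11.15, numpy 2.4.6, pandas 2.3.3, scipy 1.17.1 and matplotlib 3.10.9, and the fit was tested on simulated data. Control measures were tested by exact two-sided permutation within handling (330330 reassignments).

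The 30 classes and the members were chosen with earlier results of these data known. Genes named in the text were marked members of the classes, the 12 largest rises and falls, up to 2 in each direction per class, and the 4 genes with the widest gap between probe sets, and Camk2a 1443876_at and ranks of single classes were chosen after their values were seen. Alternatives were quantile normalization, the same mean and variance, median centring, an offset of 50, the upper 50% by mean signal, array weights, no trend, no handling term, Gapdh and Actb ratios as covariates, all probe sets of a gene, each handling group alone and each mouse left out. The class level as log2 signal and relative to genes, and the repeat controls, were added after the data had been seen. The number of arrays limits the precision.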

Additional observations from a re-analysis of the deposited data

Results flagged for a closer look

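Within the 4 groups of mice formed by handling and extraction, a part of the controls, class levels and named probe sets was examined. The search was for a mouse far from the rest of its group. A measure that is absent below was therefore not always examined. Of 292 group and measure combinations, 21 (7.19%) held such a mouse by Dixon's criterion, and chance alone gives about 1 in 20.

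Several concerned RNA controls and abundant RNAs. In the non-handled column mouse NH162 the 3′ minus 5′ signal was 1.71 for Gapdh, with the others at 1.04 to 1.35, and 3.24 for Actb, with the others at 1.57 to 2.02. In NH166 of the same group the value for Tfrc was 3.39, with the others at 0.08 to 1.84. The middle 18S probe set was 10.55 in the non-handled Trizol mouse NH138, with the others at 11.24 to 11.33. The handled column mouse H123 stood apart at the B1 repeat (15.23, others 14.70 to 14.91), the B2 repeat (15.50, others 15.04 to 15.17), Eef1a1 (15.71, others 15.28 to 15.41), A330023F24Rik (4.17, others 5.55 to 6.29) and Oga (2.80, others 5.94 to 7.50).

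The nuclear transcript Neat1 was 5.47 in the handled column mouse H118, with the others at 6.91 to 7.63, and the transcribed pseudogene 2610005L07Rik was 3.97 in H110, with the others at 5.43 to 6.31. The level of the splicing class was 4.37 in the non-handled Trizol mouse NH146, with the others at 4.00 to 4.06. In the column mice, Col11a1 was 2.60 in H116 (others 4.74 to 5.77), Cldn5 was 10.76 in H117 (others 9.95 to 10.29) and Hba-a1 was 2.38 in NH142 (others 4.89 to 6.21).

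In the Trizol mice, NH147 was high for Afg3l1 (7.595, others 4.58 to 4.98) and Prkar1b (8.32, others 5.77 to 6.13), H113 was high for Kcnk12 (6.71, others 3.85 to 4.04) and low for Hspa8 (14.96, others 15.11 to 15.13), H126 was low for H2-D1 (2.96, others 7.20 to 7.77), and NH144 was low for Gad1 (12.25, others 12.81 to 12.85).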

How the results depend on the processing

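As deposited, 7430 probe sets were called higher and 10500 lower with columns. The split was 10756 and 8091 after quantile normalization, 10758 and 7879 with the same mean and variance, and 14296 and 5891 after median centring. With the Gapdh and Actb ratios as covariates 11288 were called, 4720 higher and 6568 lower, and among the brighter probe sets 6575 were lower. The interaction count of 23 was 13 after quantile normalization, 11 with the same mean and variance, and 7 to 61 with 1 mouse left out. Quantile normalization moved class medians relative to all genes to -0.028 for ND5, 0.19 for the respiratory chain, 0.39 for cytosolic ribosomal proteins, -0.037 for synaptic vesicles, 0.33 for oligodendrocytes, 0.34 for astrocytes and -0.61 for splicing, and turned translation factors (-0.020), chaperones (-0.019) and CA1 pyramidal genes (-0.044). The same mean and variance gave -0.11 for ND5, 0.36 for the respiratory chain, 0.56 for ribosomal proteins, 0.46 for astrocytes and -0.50 for splicing. ND5 was 0.18 in handled mice alone, microglia 0.79 with the ratios as covariates, and small structural RNAs 0.16 among brighter probe sets. Long noncoding RNAs were -0.70 with the offset and -1.50 over all probe sets, and splicing -0.60 over all probe sets. Median centring turned Cct8 (0.0015), Dnajb4 (0.078), Gria2 (0.15), Hspa8 (0.47), Man1a (0.17), Map2 (0.23), Mrpl50 (0.14), Psmc6 (0.18), Ptprb (0.051), Slc4a4 (0.27), Slco1a4 (0.039) and Snap25 (0.35), quantile normalization turned Syt1 (-0.18), and Dlg4 was -0.12 in handled mice alone. With 1 mouse left out, the poly-A spikes lay between -0.31 and -0.18 and B1 between 0.32 and 0.48, and 40 of 3850 values of named genes lost their call. The covariate fit took the call from 26 of 154 named probe sets. The cause was not tested for any of these. A check of promoter base composition is void, since 79% of genes had a value, and protein length was not run. No paired analysis was possible because no mouse number occurs in more than 1 group.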
